A study of Mus musculus with 9 samples.

Results

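Integrins, selectins and the surface proteins they bind hold cells to each other and to matrix, and they are described here in mouse tumours by the read counts of their genes. The members were found by name: 17 integrin alpha chains and 9 integrin beta chains, together with 10 selectin and adhesion ligand genes (Icam1, Icam2, Icam4, Icam5, Vcam1, Madcam1, Selp, Sele, Selplg and Glycam1). They made up 36 of the 44806 entries of the count table. Of these 36, 32 passed the filter on low counts and were tested, and 4 (Glycam1, Icam4, Itgb6 and Madcam1) did not pass it. The tumours were grown from MB49, a mouse bladder cancer cell line that the labels describe as overexpressing HER2, a receptor tyrosine kinase, and all groups share that line. The 3 treatments, with 3 libraries each, were PBS, Lipo-BiTE and Lipo-TriTE, and the series title calls such agents T cell nanoengagers made from lipid-tagged antibody fragments. What the agents bind, their doses and schedule, the age, sex and strain of the mice and whether the line is 1 clone were not given in the sources used here. Without a group given the carrier alone, carrier and agent cannot be told apart. The design text names T cells sorted by CD3 as the material, while the labels and the extraction protocol name whole frozen tumour, and the data held both: Krt8, a keratin of epithelial and tumour cells, lay between 158.7 and 478.8 CPM (read counts scaled to library size) and Cd3e, a T cell receptor subunit, between 2.82 and 105.8 CPM. In such bulk samples fewer cells of a type and less RNA per cell cannot be told apart.

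An integrin is a pair of 1 alpha and 1 beta chain. The beta2 chains form the leukocyte integrins, among them LFA-1 (Itgal with Itgb2) on most leukocytes and Mac-1 (Itgam with Itgb2) on myeloid cells, and their ligands are the ICAM proteins. The alpha4 chain pairs with beta1 or beta7 and binds VCAM-1 and MAdCAM-1, and alphaE with beta7 binds E-cadherin on epithelium. Other chains bind fibronectin, vitronectin, collagens or laminins and serve tumour cells and stroma. Selectins on activated endothelium and platelets catch leukocytes through sugars carried by PSGL-1, the product of Selplg.

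Libraries held 13152783 to 20273548 counts, and 3 counts in a library equalled 0.148 to 0.228 CPM. Every tested gene of the 8 leukocyte marker lists was higher in Lipo-TriTE than in PBS. The summed CPM of 7 T cell markers ran from 33.7 to 35.9 in PBS, 148.3 to 275.6 in Lipo-BiTE and 676.8 to 1133.6 in Lipo-TriTE. That of 7 macrophage and monocyte markers ran from 91.9 to 140.2, 708.5 to 1626.8 and 510.6 to 657.5, and that of 6 neutrophil markers from 220.2 to 382.8, 1269.3 to 6666.4 and 1445.5 to 4447.1. Whether each library is another animal is not stated, and p-values here cover only the spread between these samples, which may be technical.

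With calls made by edgeR's quasi-likelihood test (Benjamini-Hochberg, threshold 0.05), 10 of the 32 tested members were higher in Lipo-BiTE than in PBS and 0 were lower, where 13.8% and 3.22% of all 16596 tested genes were. At an unadjusted p under 0.05, 2 members were lower (Itga6 and Itgb5), and DESeq2 called 0 lower. In Lipo-TriTE, 16 were higher than in PBS and 7 lower, against 18.9% and 14.8% of all genes. All 10 members higher in Lipo-BiTE were also higher in Lipo-TriTE, and both comparisons use the same PBS libraries. In Lipo-TriTE against Lipo-BiTE 2 were higher and 4 lower, against 4.88% and 5.21% of all genes, so the 2 higher are near the background share. The latter counts moved with single libraries: without Lipo-BiTE 1 they were 4 and 7, without Lipo-BiTE 2 they were 1 and 1, and 2 members were lower without Lipo-TriTE 1 or 3. The median log2 fold change of the tested members was 0.58, 1.14 and 0.03 in that order, beside −0.02, 0 and −0.01 over all tested genes. Libraries of the 2 groups did not overlap for 15, 25 and 10 members, where 42.1%, 49.5% and 30.5% of all genes did not overlap. Scaling by total counts in place of TMM moved the median of all genes to −0.16 in Lipo-BiTE against PBS and to 0.11 between the treatments. It turned the split of all genes higher and lower from 2283 and 534 to 2079 and 988, and from 810 and 865 to 1099 and 451. Every called member kept its direction under each scaling.

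**Figure D1:**
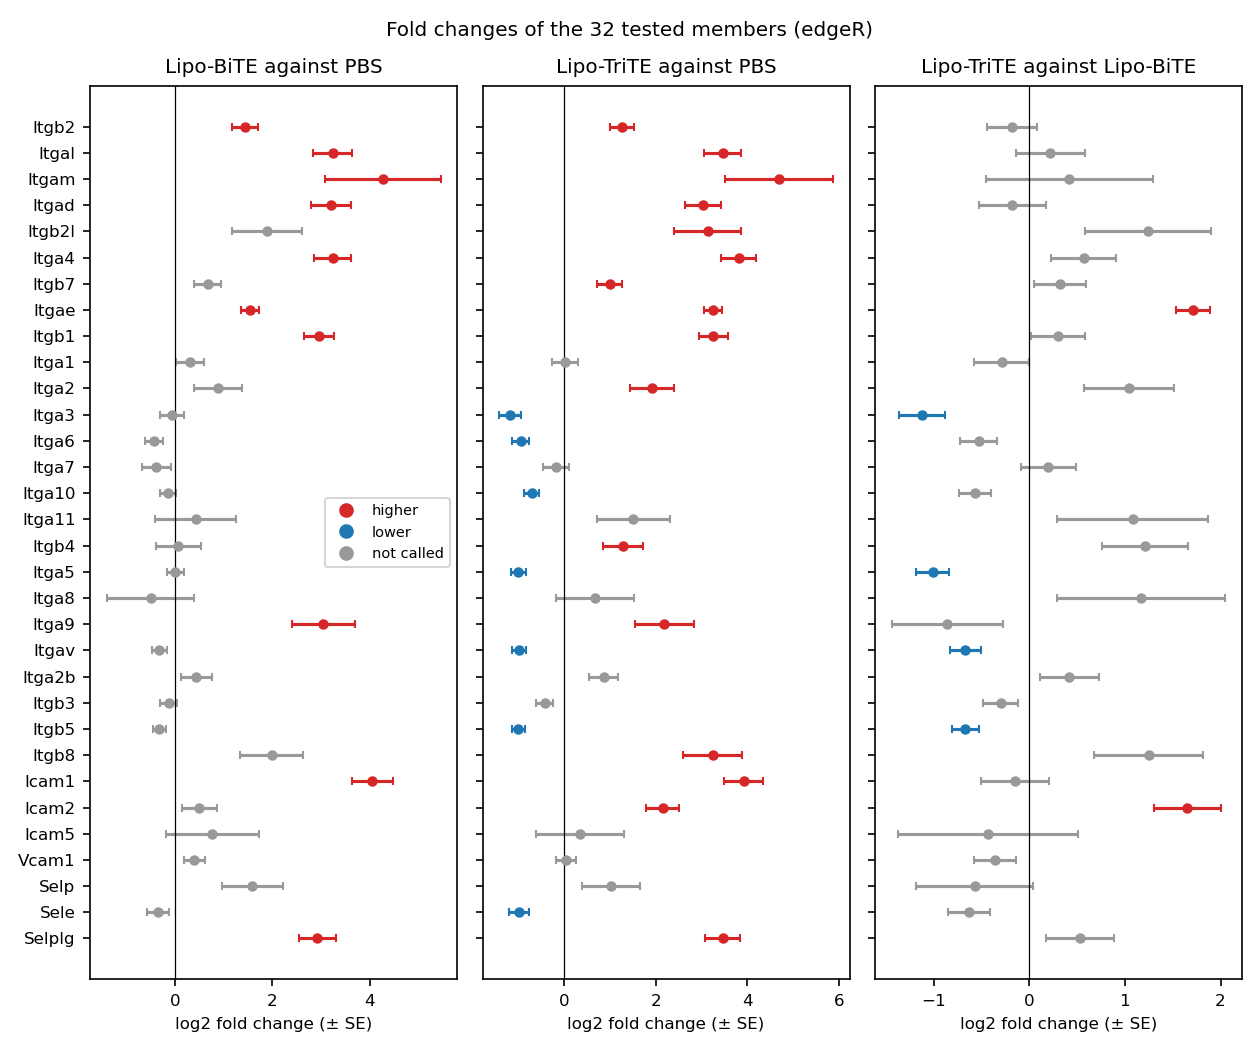
Log2 fold change with its standard error (x axis) of the 32 tested members (y axis, ordered by role) in the 3 comparisons, coloured by the edgeR call at an adjusted p under 0.05; the x axes differ in range. Leukocyte chains lie to the right of 0 in both comparisons with PBS, and the lower calls are Itga3, Itga5, Itga6, Itga10, Itgav, Itgb5 and Sele.

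Of the 5 leukocyte integrin chains of the beta2 family, 4 were higher in Lipo-BiTE than in PBS and 1 (Itgb2l) did not pass, and all 5 were higher in Lipo-TriTE. Among all tested genes 13.8% and 18.9% were higher in those comparisons. Itgb2, the shared beta chain, stood at 220.2, 238.8 and 230.3 CPM in PBS, 936.3, 545.1 and 383.8 in Lipo-BiTE, and 571.4, 569.7 and 505.4 in Lipo-TriTE. Every treated library lay above every PBS library. Itgb2 rose 2.71-fold in Lipo-BiTE (log2 fold change 1.44, SE 0.26, adjusted p = 0.0038) and 2.39-fold in Lipo-TriTE (1.26, SE 0.26, adjusted p = 0.0044). Itgal, the alpha chain of LFA-1, rose further. Its libraries read 39.3, 48.2 and 55 CPM in PBS, 714.3, 419 and 214.4 in Lipo-BiTE, and 678.6, 495.3 and 390.7 in Lipo-TriTE. That was 9.45-fold in Lipo-BiTE (log2 3.24, SE 0.4, adjusted p = 0.00077) and 11-fold in Lipo-TriTE (3.46, SE 0.4, adjusted p = 0.00021). Treated groups overlapped each other for both genes, and neither passed in Lipo-TriTE against Lipo-BiTE (adjusted p = 0.72 for Itgb2 and 0.76 for Itgal).

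The alpha chain of Mac-1 was split over 2 overlapping entries. The row named Itgam (chromosome 7, 137621388 to 137693833 in the deposited coordinates of the C57BL/6NJ gene models) held 107 counts over all 9 libraries. A second model on the same strand (137621345 to 137685831), which carries an identifier in place of a symbol and is described in the table as integrin alpha-M, held 12259. Only 0.865% of the 12366 counts of both thus stood under the name Itgam. The named row had 0, 1 and 1 counts in PBS, 25, 11 and 1 in Lipo-BiTE, and 35, 15 and 18 in Lipo-TriTE. It was called higher against PBS in both comparisons (adjusted p = 0.032 and 0.011). With 2 counts over PBS its ratio of counts per library total was 20 (exact 95% interval 5.16 to 171.5, counting error only) in Lipo-BiTE and 30.7 (8.19 to 258.9) in Lipo-TriTE. The call in Lipo-BiTE was lost without PBS 1, 2 or 3 (adjusted p = 0.092, 0.084 and 0.084) and without Lipo-BiTE 1 or 2 (0.17 and 0.068), and its fitted fold went from 19.3 to 9.24 without Lipo-BiTE 1.

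The unnamed alpha-M model held most of the reads. It stood at 9.5, 14.8 and 14 CPM in PBS, 296.3, 146.8 and 76.1 in Lipo-BiTE, and 63.5, 98.6 and 131.5 in Lipo-TriTE. All treated libraries were above all PBS libraries, and the treated groups overlapped. The model rose 13.5-fold in Lipo-BiTE (log2 3.76, SE 0.48, adjusted p = 0.00084; 8.71-fold without Lipo-BiTE 1) and 7.63-fold in Lipo-TriTE (2.93, SE 0.46, adjusted p = 0.0012). Between the treatments its adjusted p was 0.26.

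**Figure D2:**
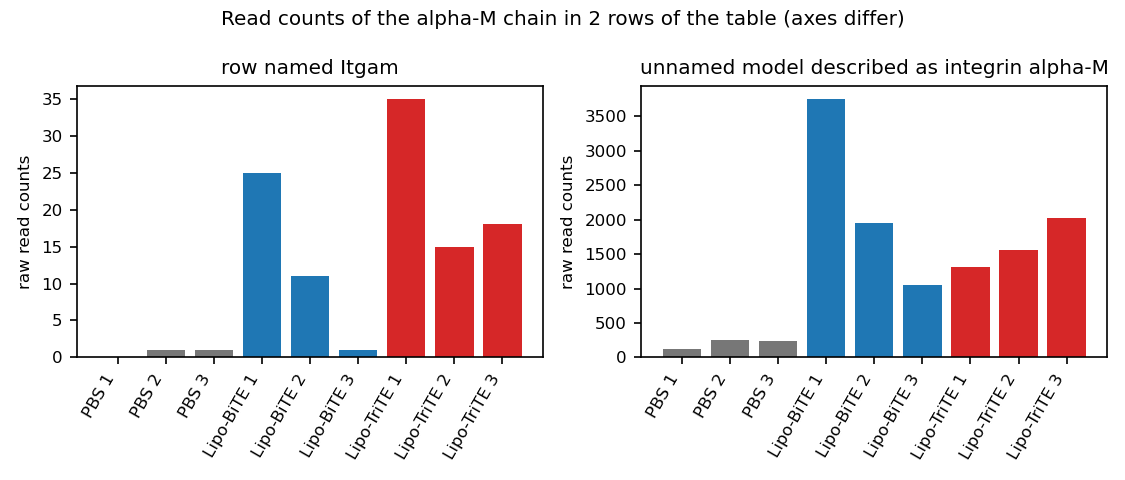
Raw read counts (y axes, which differ in range) of both entries for the integrin alpha-M chain in each of the 9 libraries, coloured by treatment. The row named Itgam does not pass 35 counts in any library, while the overlapping unnamed model reaches 3755.

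A further unnamed model, at 137695220 to 137723576 of chromosome 7 between Itgam and Itgad, is described as integrin alpha-X, the CD11c chain of dendritic cells and macrophages. It read 17.7, 14.4 and 15.1 CPM in PBS, 285.3, 170.1 and 89.5 in Lipo-BiTE, and 146.3, 130.5 and 115.1 in Lipo-TriTE. It was 11.5-fold higher in Lipo-BiTE (adjusted p = 0.00076) and 8.3-fold in Lipo-TriTE (adjusted p = 0.0002). Its last bases overlap the model of Itgad, the alphaD chain of tissue macrophages, on the same strand, so reads there could have gone to either. Itgad read 1.19, 1.59 and 1.6 CPM in PBS, 19.5, 14 and 7.56 in Lipo-BiTE, and 16.6, 11.2 and 8.36 in Lipo-TriTE. Itgad was 9.26-fold higher in Lipo-BiTE (adjusted p = 0.00077) and 8.16-fold in Lipo-TriTE (adjusted p = 0.00036). Itgb2l, a beta2-like chain, read 0.148, 0.826 and 0.951 CPM in PBS, 4.66, 2.11 and 0.654 in Lipo-BiTE, and 7.96, 4.25 and 5.18 in Lipo-TriTE. Only the rise in Lipo-TriTE passed (8.77-fold, adjusted p = 0.0074), and Lipo-BiTE overlapped PBS (adjusted p = 0.098).

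**Figure D3:**
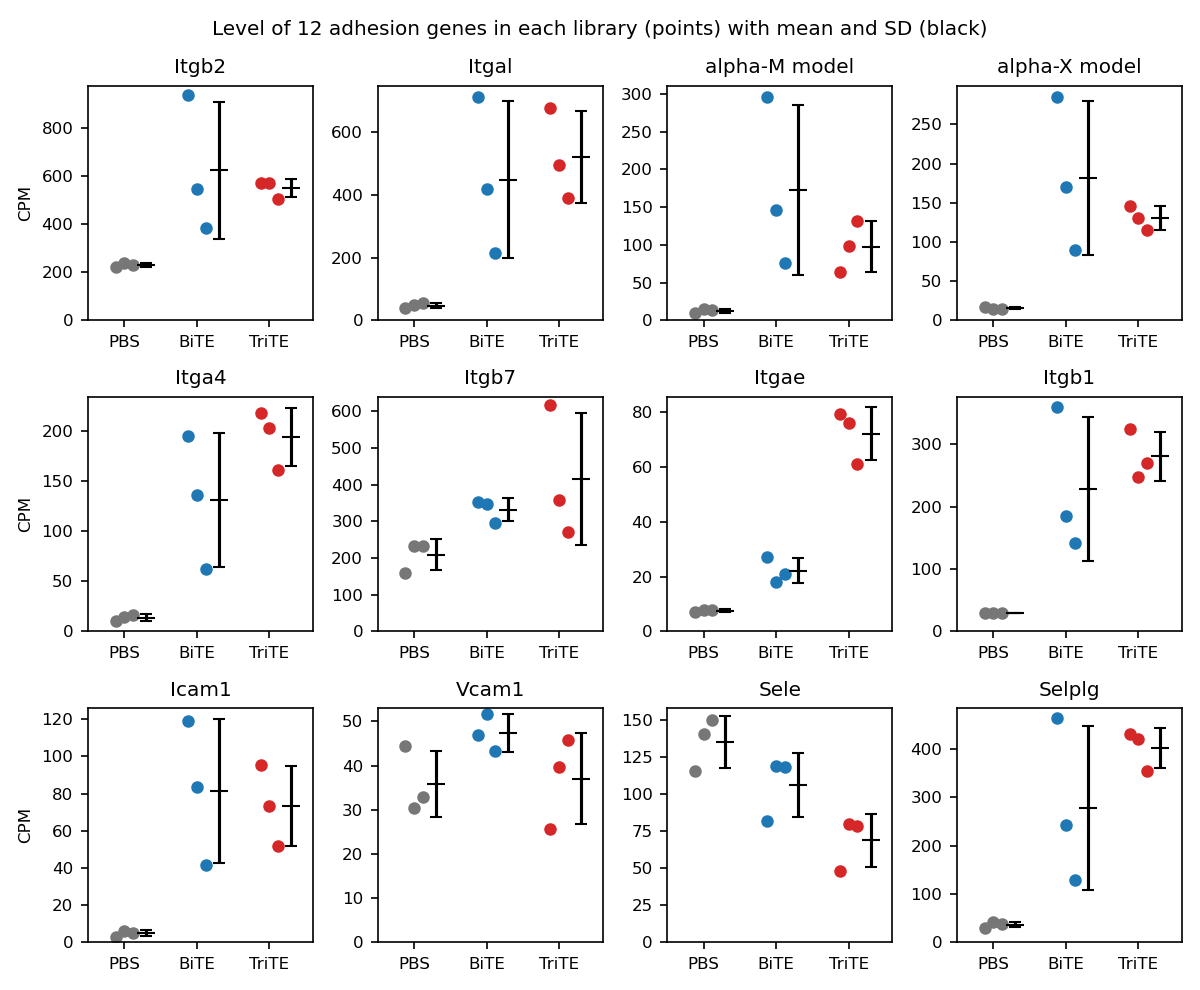
CPM (y axes from 0, which differ in range) of 12 adhesion genes in each library (points), with the mean and SD of the 3 libraries of a group in black. Itgae and Sele separate Lipo-TriTE from Lipo-BiTE without overlap, while Itgb2, Itgal and Icam1 do not.

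The row for Itgam has a RefSeq promoter sequence, shown because that gene anchors the beta2 myeloid pair and because PU.1, an ETS factor of myeloid cells, is known to act at myeloid integrin genes. The window, chr7:128062390-128062689 on the plus strand of GRCm38.p6, runs from 250 bases before to 50 after the annotated start. Capitals mark GAGGAA, a core that ETS factors can bind, read on either strand (TTCCTC on the other).
Itgam promoter: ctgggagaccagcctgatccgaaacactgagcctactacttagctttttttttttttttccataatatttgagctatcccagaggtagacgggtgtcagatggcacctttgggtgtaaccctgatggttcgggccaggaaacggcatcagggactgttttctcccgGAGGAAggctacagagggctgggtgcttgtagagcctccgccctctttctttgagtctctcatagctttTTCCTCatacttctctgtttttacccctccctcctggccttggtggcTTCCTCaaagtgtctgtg
These letters occurred 3 times in it. They were present in 28.3% of all 32851 promoters of that length, and in the promoters of 11 of the 25 members with a sequence, Itga3, Itga5 and Itgav among them, which were lower in Lipo-TriTE. A match is a description of letters and not of binding.

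Of the 3 chains of lymphocyte homing and retention, 2 were higher in Lipo-BiTE than in PBS (Itga4 and Itgae) and all 3 in Lipo-TriTE, and Itgae had the smallest adjusted p of all members between the treatments. Against PBS 13.8% of all tested genes were higher in Lipo-BiTE and 18.9% in Lipo-TriTE. Itga4, the alpha chain of VLA-4, read 10.1, 14.8 and 16.6 CPM in PBS, 195.2, 136 and 61.9 in Lipo-BiTE, and 218.1, 203.2 and 161.7 in Lipo-TriTE. Treated libraries lay above PBS and overlapped each other. Itga4 rose 9.43-fold in Lipo-BiTE (log2 3.24, SE 0.38, adjusted p = 0.00076) and 14-fold in Lipo-TriTE (3.81, SE 0.39, adjusted p = 0.0001). Itgae, which encodes the CD103 chain of tissue-resident T cells and cross-presenting dendritic cells, went in steps without overlap between any of the groups. It read 7.05, 7.85 and 7.84 CPM in PBS, 27.1, 18.2 and 21.1 in Lipo-BiTE, and 79.4, 76 and 61.2 in Lipo-TriTE. Itgae rose 2.91-fold in Lipo-BiTE (log2 1.54, SE 0.19, adjusted p = 0.00076) and 9.51-fold in Lipo-TriTE (3.25, SE 0.2, adjusted p = 5.7e-06). It was 3.27-fold higher in Lipo-TriTE than in Lipo-BiTE (1.71, SE 0.18, adjusted p = 0.00095).

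Markers of several leukocyte types were higher beside Itgae between the treatments, where 4.88% of all tested genes were higher. In Lipo-TriTE against Lipo-BiTE 7 of 7 T cell markers and 5 of 6 dendritic cell markers were higher, and 0 of 7 macrophage markers (edgeR; 0 also at an unadjusted p under 0.05 and by DESeq2). Higher too were 6 of 6 B cell, 4 of 4 tested mast cell and 2 of 4 NK cell markers, and 0 of 6 neutrophil markers. The summed dendritic cell level ran from 22.6 to 32.2 CPM in PBS, 47.8 to 61.4 in Lipo-BiTE and 273.1 to 355.3 in Lipo-TriTE. The part of these cell types in the result for Itgae was not tested. Relative to Cd3e, Itgae lay higher in PBS (log2 ratio 0.98 ± 0.29) than in Lipo-BiTE (0.07 ± 0.54) or Lipo-TriTE (−0.09 ± 0.28; SD, n = 3 each). The Itgae entry also overlaps Gsg2 on the opposite strand, which had 1463 counts over all libraries beside 5013 for Itgae, and whether counting used strand is not given in the sources used here.

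Itgb7, the beta chain of the gut-homing receptor and of alphaE, read 160.1, 234.3 and 231.7 CPM in PBS, 352, 348.5 and 295.7 in Lipo-BiTE, and 616.5, 358.6 and 272.5 in Lipo-TriTE. All treated libraries were above PBS. It passed in Lipo-TriTE (1.99-fold, log2 0.99, SE 0.27, adjusted p = 0.017) but not in Lipo-BiTE (1.59-fold, adjusted p = 0.12), and the call in Lipo-TriTE was lost without PBS 1 (adjusted p = 0.062). In Lipo-BiTE against PBS Itgb7 did pass with no filter (adjusted p = 0.002) or only those groups fitted (0.035). Between the treatments it overlapped and did not pass (log2 0.32, adjusted p = 0.49).

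Of the chains that pair with beta1 or bind collagen and laminin, Itgb1 rose after both treatments. Itgb1, the most widely shared beta chain, read 29.3, 28.9 and 29.8 CPM in PBS, 358.9, 185.3 and 141.4 in Lipo-BiTE, and 324.3, 247.2 and 269.8 in Lipo-TriTE. Treated libraries were all at least 141.4 CPM and PBS libraries at most 29.8. Itgb1 rose 7.79-fold in Lipo-BiTE (log2 2.96, SE 0.31, adjusted p = 0.00076) and 9.56-fold in Lipo-TriTE (3.26, SE 0.31, adjusted p = 7.2e-05). Itga3 and Itga6, alpha chains of epithelial and tumour cells, were lower in Lipo-TriTE. Itga3, a laminin receptor chain, read 142.8, 176.7 and 179.7 CPM in PBS, 115.5, 176.8 and 187.2 in Lipo-BiTE, and 63.2, 99.6 and 57.3 in Lipo-TriTE. Itga6, another laminin receptor chain, read 578.6, 589.1 and 615.2 in PBS, 338.6, 460.4 and 525.2 in Lipo-BiTE, and 241.3, 363.1 and 315.4 in Lipo-TriTE. Lipo-TriTE libraries lay below all PBS libraries for both. In Lipo-TriTE against PBS Itga3 fell by 1.18 on the log2 scale (SE 0.24, adjusted p = 0.0037) and Itga6 fell by 0.95 (SE 0.19, adjusted p = 0.0035).

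Lipo-BiTE left these chains without a call. Itga3 had a log2 fold change of −0.06 (adjusted p = 0.89) and Itga6 of −0.43 (adjusted p = 0.15) in Lipo-BiTE against PBS. For Itga6 all Lipo-BiTE libraries still lay below all PBS libraries (edgeR unadjusted p = 0.046). Between the treatments Itga6 overlapped and did not pass (log2 −0.53, adjusted p = 0.11). Itga3 was lower in Lipo-TriTE than in Lipo-BiTE (log2 −1.12, SE 0.24, adjusted p = 0.017), a call lost without Lipo-BiTE 2, Lipo-TriTE 1 or Lipo-TriTE 3 (adjusted p = 0.069, 0.056 and 0.059). Itga10, a collagen receptor chain of cartilage, fell by 0.71 in Lipo-TriTE against PBS (SE 0.17, adjusted p = 0.0077), from 68.6, 75.6 and 73.5 CPM to 41.2, 43.9 and 48.1, with 52.8, 63.6 and 81.6 in Lipo-BiTE. Itga2 and Itgb4, both scarce, were higher. Itga2, a collagen receptor chain, read 1.78, 0.944 and 1.31 CPM in PBS, 3, 2.86 and 1.53 in Lipo-BiTE, and 6.46, 6.28 and 2.4 in Lipo-TriTE, and passed in Lipo-TriTE (3.77-fold, adjusted p = 0.011). Itgb4, the beta chain of hemidesmosomes, read 1.41, 1.48 and 1.66 CPM in PBS, 1.82, 1.35 and 1.6 in Lipo-BiTE, and 2.33, 6.03 and 2.72 in Lipo-TriTE. It passed in Lipo-TriTE against PBS (2.42-fold, adjusted p = 0.047). That call was lost without any single library of those groups except Lipo-TriTE 1 (adjusted p from 0.05 to 0.22). It was also lost with total counts, no filter or only those groups fitted (0.051, 0.12 and 0.071). Itga1, Itga7 and Itga11 had mean levels of 0.454 to 12.3 CPM and passed in none of the comparisons. The entry of Itga1, with 1491 counts over all libraries, overlaps Pelo (2184 counts) on the same strand.

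Of the 8 tested chains that bind fibronectin or vitronectin or act on TGF-beta, 3 were lower in Lipo-TriTE than in PBS (Itga5, Itgav and Itgb5), 2 were higher (Itga9 and Itgb8) and 3 did not pass, with a median log2 fold change of 0.12. Of all tested genes 14.8% were lower and 18.9% higher there, so the 2 higher are near the background share. Itga5, the fibronectin receptor chain, read 257.6, 344.3 and 340.9 CPM in PBS, 314.6, 321.9 and 312 in Lipo-BiTE, and 146.9, 191 and 132.4 in Lipo-TriTE. Lipo-TriTE libraries were below all others, and Lipo-BiTE libraries lay within the range of PBS. Itga5 fell by 1 on the log2 scale in Lipo-TriTE against PBS (SE 0.17, adjusted p = 0.0015) and fell by 1.01 against Lipo-BiTE (SE 0.17, adjusted p = 0.0074). Itgav, the alphaV chain, read 467.7, 465.6 and 471.1 CPM in PBS, 321.3, 403.5 and 400.6 in Lipo-BiTE, and 195.6, 275.4 and 236.8 in Lipo-TriTE. No libraries of different groups overlapped for Itgav. It fell by 0.99 in Lipo-TriTE against PBS (SE 0.16, adjusted p = 0.001) and fell by 0.67 against Lipo-BiTE (SE 0.16, adjusted p = 0.024), and did not pass in Lipo-BiTE against PBS (log2 −0.32, adjusted p = 0.18). The call between the treatments was lost without Lipo-BiTE 2 or 3 (adjusted p = 0.097 and 0.076) and without Lipo-TriTE 1 or 3 (0.077 and 0.064), and also with total counts (0.076) or only those groups fitted (0.08).

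Of the beta partners of alphaV, Itgb5 fell and Itgb8 rose in Lipo-TriTE. Itgb5 read 187.9, 188.6 and 169.1 CPM in PBS, 146.2, 137.6 and 152.6 in Lipo-BiTE, and 98.3, 99.1 and 76.1 in Lipo-TriTE, with no overlap of groups. It fell by 1 in Lipo-TriTE against PBS (SE 0.14, adjusted p = 0.00049) and fell by 0.67 against Lipo-BiTE (SE 0.14, adjusted p = 0.015; 0.052 without Lipo-BiTE 2). Itgb3, the beta chain shared by the vitronectin receptor and the platelet receptor, had means of 222 ± 20.4, 203 ± 41.7 and 164.4 ± 25.4 CPM (SD, n = 3 each) in PBS, Lipo-BiTE and Lipo-TriTE and passed in no comparison (adjusted p = 0.65, 0.085 and 0.32). Itgb8, which with alphaV activates TGF-beta, was scarce, at 0.371, 0.177 and 0.238 CPM in PBS, 0.71, 1.05 and 1.38 in Lipo-BiTE, and 3.5, 1.14 and 2.85 in Lipo-TriTE. It was 9.43-fold higher in Lipo-TriTE than in PBS (adjusted p = 0.0034) and did not pass in Lipo-BiTE (3.97-fold, adjusted p = 0.059). Itga9, a chain found on neutrophils and lymphatic endothelium, read 4.31, 0.649 and 1.31 CPM in PBS, 26, 6.99 and 18 in Lipo-BiTE, and 11.8, 8.82 and 7.45 in Lipo-TriTE. Itga9 rose 8.3-fold in Lipo-BiTE (adjusted p = 0.0096) and 4.57-fold in Lipo-TriTE (adjusted p = 0.023), or 17.2-fold and 9.37-fold without PBS 1, and the call in Lipo-TriTE was lost without PBS 2 or 3 or Lipo-TriTE 1 (adjusted p = 0.069, 0.089 and 0.073). The platelet chain Itga2b (means of 4.6, 6.25 and 8.4 CPM) and Itga8 (0.47, 0.322 and 0.741 CPM) passed in none.

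Markers of tumour and stroma are given beside these falls. In Lipo-TriTE against PBS 2 of 4 tested epithelial and tumour markers were lower and 1 higher, and 2 of 6 fibroblast markers were lower and 0 higher (0 also at an unadjusted p under 0.05 and by DESeq2). Over all tested genes 14.8% were lower and 18.9% higher in that comparison. The summed level of the 5 epithelial and tumour markers in the table ran from 845.9 to 906.8 CPM in PBS, 557.6 to 757.2 in Lipo-BiTE and 374.6 to 621.1 in Lipo-TriTE, and that of 6 fibroblast markers from 83.1 to 192.7, 42.1 to 50.9 and 60.5 to 79.5. Most of the epithelial and tumour sum was Krt8 (means of 465, 329.1 and 246.5 CPM) and Krt18 (405.8, 300.4 and 236.1). The 1 higher marker was Cdh1, the E-cadherin gene, with means of 4, 24.7 and 36.9 CPM. It was higher than in PBS in Lipo-BiTE (log2 2.63, adjusted p = 0.0029) and in Lipo-TriTE (3.21, adjusted p = 0.00064). The part of tumour and stromal cells in the lower integrins was not tested.

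Per kilobase of gene length the make-up of integrin transcripts changed between groups. In PBS the highest members were Itga6 at 80.7 ± 2.56, Itgb7 at 75.8 ± 15.3, Itgb2 at 74.2 ± 3.01 and Itga5 at 71.8 ± 11.2 CPM per kilobase (SD, n = 3 each), and the SD ranges of Itgb7 and Itga5 each covered the means of the other 3, while Itga6 and Itgb2 differed by more than their SDs. Itgb2 was highest in Lipo-BiTE (200.8 ± 91.7) and in Lipo-TriTE (177.2 ± 12.1), followed by Itgb7 in both (120.7 ± 11.5 and 151.1 ± 65.1), with ranges of mean and SD that overlap. Selplg went from rank 11 in PBS to rank 3 in Lipo-TriTE, at 8.58 ± 1.29 and 94.8 ± 9.95. Itgb1 stood at 7.18 ± 0.11 in PBS, where its partners Itga6, Itga5 and Itga3 stood at 80.7, 71.8 and 29.1, and reached 68.7 ± 9.72 in Lipo-TriTE.

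As a share of all alpha chain reads per kilobase, Itga3, Itga5, Itga6 and Itgav together went from 86.1 ± 0.153% in PBS to 53.4 ± 14.8% (Lipo-BiTE) or 38.7 ± 5.91% (Lipo-TriTE; SD, n = 3 each). These 4 held the largest shares in PBS and each was called lower in Lipo-TriTE against PBS, so their joint fall there is no separate result. In Lipo-BiTE against PBS none of them passed (log2 −0.06, 0.01, −0.43 and −0.32). A share also falls where other chains rise. The leukocyte alpha chains (Itgal, Itgad, Itga4, Itgae, both alpha-M entries and the alpha-X model, a set drawn up after the values were seen) held 6.2 ± 0.234%, 40.8 ± 16.4% and 55.4 ± 6.21% in the same order. Lipo-BiTE libraries differed widely among themselves, with 57.8, 39.6 and 24.9% in libraries 1, 2 and 3. Among beta chains, Itgb3 and Itgb5 together held 36.9 ± 2.37% in PBS and 12.2 ± 1.52% in Lipo-TriTE, while Itgb7 held 30.2 ± 3.94, 27.3 ± 4.89 and 32.3 ± 7.52% in PBS, Lipo-BiTE and Lipo-TriTE. Itgb5 was already called lower in Lipo-TriTE against PBS, and Itgb3 was not.

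**Figure D4:**
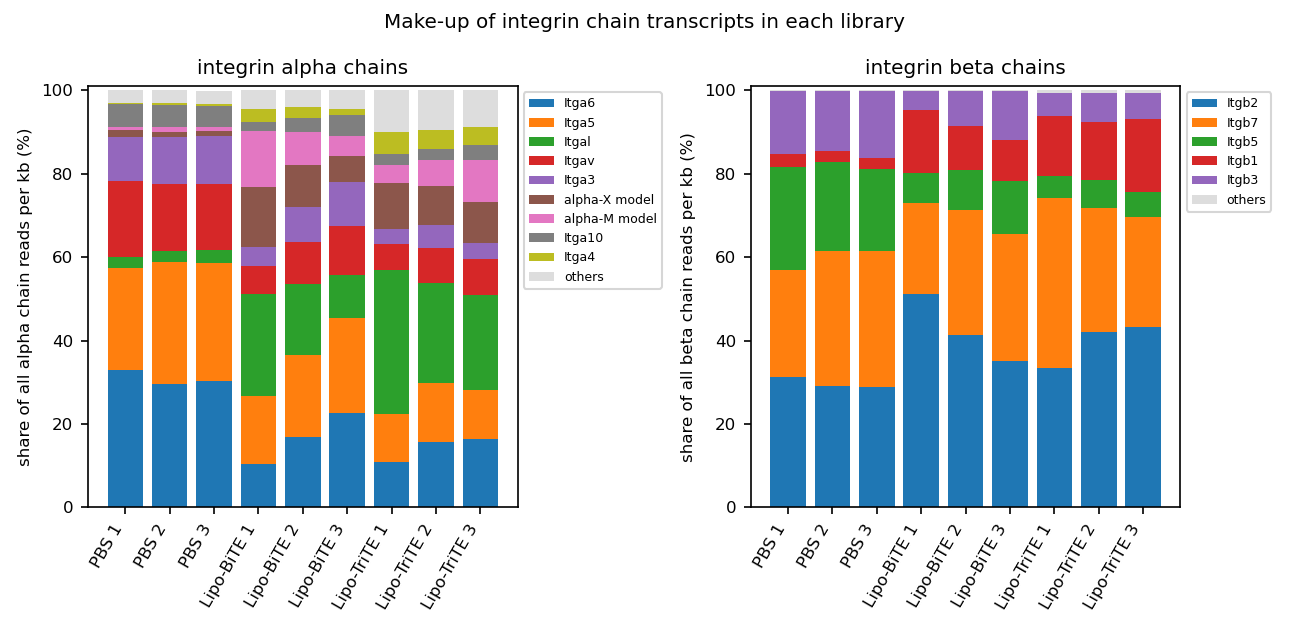
Share (y axis, %) of each integrin chain among all alpha (left) or beta (right) chain reads per kilobase in each of the 9 libraries (x axis), with the lesser chains summed as others. Itga5 and Itga6 lead the alpha chains in PBS and Itgal in the Lipo-TriTE libraries, and Itgb7 keeps a share between 21.7% and 40.7% throughout.

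Ratios within a library, in which scaling cancels, set the members against Ptprc, the CD45 gene of all leukocytes, which itself went from 88.6 ± 14 CPM in PBS to 942 ± 548.9 (Lipo-BiTE) or 1456.3 ± 258.5 (Lipo-TriTE). Of these ratios that of Itga4 moved least: the log2 ratio of Itga4 to Ptprc was −2.69 ± 0.14, −2.8 ± 0.12 and −2.9 ± 0.18, and all groups overlapped. For Itgal the ratio was −0.9 ± 0.08, −1.04 ± 0.1 and −1.5 ± 0.2, and Lipo-TriTE lay below both other groups. Relative to Ptprc, Itgb2 and Itgb7 were higher in PBS than after treatment. Their ratios were 1.39 ± 0.19 and 1.23 ± 0.08 in PBS and −1.4 ± 0.21 and −1.88 ± 0.37 in Lipo-TriTE, without overlap. The alpha-M and alpha-X models, in ratios added after the data were seen, lay lower in Lipo-TriTE (−3.94 ± 0.76 and −3.47 ± 0.13) than in Lipo-BiTE (−2.47 ± 0.15 and −2.34 ± 0.12; SD, n = 3 each), again without overlap. An exact two-sided permutation test of 3 against 3 libraries cannot give a p under 0.1, which was the value for each difference without overlap named here, and none of the 45 ratio comparisons made could pass.

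**Figure D5:**
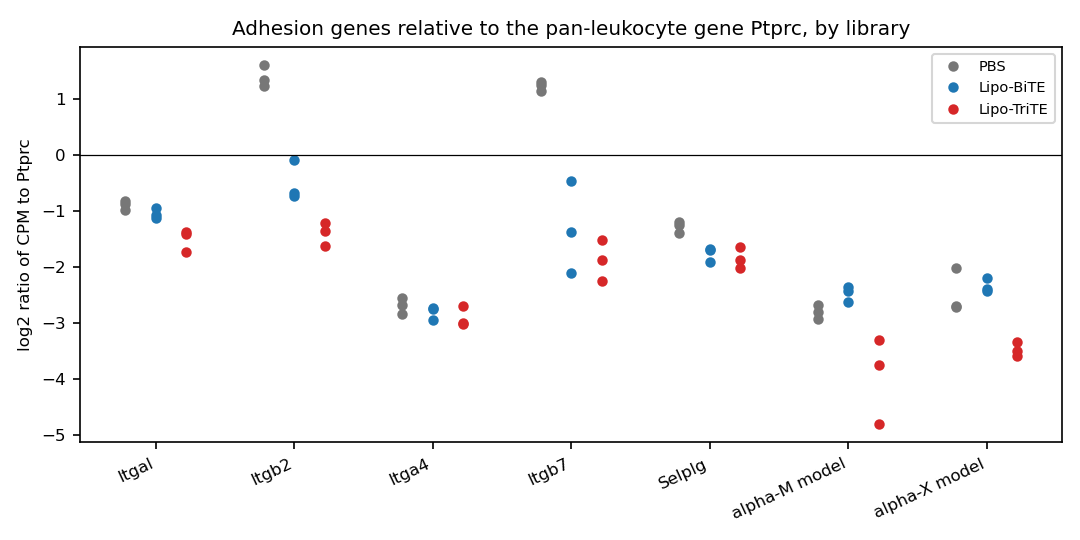
Log2 ratio of CPM to that of Ptprc (y axis) for 5 members and both unnamed models, with 1 point per library coloured by treatment. Itga4 points of all groups overlap, while those of Itgb2 and Itgb7 lie higher in every PBS library than in any treated library; the ratios are not scaled to gene length.

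Among the ligands Icam1 rose after both treatments and Icam2 in Lipo-TriTE, while Vcam1 passed in no comparison. Icam1, the main counter-receptor of LFA-1 and an NF-kB target of inflamed endothelium and leukocytes, read 3.12, 6.26 and 5.11 CPM in PBS, 119, 83.4 and 41.5 in Lipo-BiTE, and 95.2, 73.1 and 52 in Lipo-TriTE. It rose 16.7-fold in Lipo-BiTE (log2 4.06, SE 0.42, adjusted p = 0.00076) and 15.1-fold in Lipo-TriTE (3.92, SE 0.42, adjusted p = 0.00013), and the treatments overlapped (adjusted p = 0.85). Vcam1, the ligand of alpha4 integrins, read 44.4, 30.4 and 32.8 CPM in PBS, 47, 51.7 and 43.3 in Lipo-BiTE, and 25.6, 39.7 and 45.7 in Lipo-TriTE. All its groups overlapped, and its log2 fold change was 0.4 (SE 0.22, adjusted p = 0.24) in Lipo-BiTE and 0.04 (SE 0.22, adjusted p = 0.9) in Lipo-TriTE. Icam2, a ligand of LFA-1 on endothelium and lymphocytes, was higher in Lipo-TriTE than in both other groups. It read 6.09, 6.49 and 4.04 CPM in PBS, 11.3, 5.72 and 6.54 in Lipo-BiTE, and 35.7, 22 and 16 in Lipo-TriTE, which was 4.44-fold above PBS (adjusted p = 0.0014) and 3.14-fold above Lipo-BiTE (log2 1.65, SE 0.35, adjusted p = 0.018; 0.087 without Lipo-BiTE 2).

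Between the treatments markers of several leukocyte types were higher beside Icam2, where 4.88% of all tested genes were higher and 5.21% lower. These were 7 of 7 T cell, 4 of 4 tested mast cell, 5 of 6 dendritic cell and 2 of 4 NK cell markers. Of macrophage and neutrophil markers 0 of 7 and 0 of 6 were higher. In Lipo-BiTE against PBS Icam2 did not pass (log2 0.5, adjusted p = 0.36). All 6 B cell markers were higher in Lipo-TriTE than in Lipo-BiTE, with a summed level of 9.6 to 16.8 CPM in Lipo-BiTE and 348.1 to 952.3 in Lipo-TriTE. Of 4 tested endothelial markers 0 were higher and 1 was lower between the treatments (edgeR; 1 higher at an unadjusted p under 0.05 and by DESeq2). The part of these cells in the result was not tested. Icam5, of neurons, had means of 0.399, 0.697 and 0.524 CPM and passed in no comparison. Icam4, of red cells, was left out by the filter, with 4, 4 and 17 counts over the libraries of PBS, Lipo-BiTE and Lipo-TriTE. Madcam1, the addressin of gut vessels, had 2, 4 and 1 counts, and Glycam1, of high endothelial venules, had 0, 1 and 2, so no difference was detectable at this depth. Of 4 markers of high endothelial venules 3 were in the table and 1 was tested: Fut7, a fucosyltransferase that leukocytes also express, rose in Lipo-BiTE (log2 2.27, adjusted p = 0.026) and in Lipo-TriTE (3.13, adjusted p = 0.0029). Their summed level ran from 0.59 to 0.965 CPM in PBS, 1.53 to 5.13 in Lipo-BiTE and 3.05 to 7.92 in Lipo-TriTE. Of the other two, Ackr1 had means of 0.123, 0.0505 and 0.647 CPM, and Chst4 had 1 or more counts in 1 PBS and 1 Lipo-BiTE library and 0 in every Lipo-TriTE library. Itgb6, an epithelial partner of alphaV, was left out by the filter with 7, 1 and 6 counts in PBS, 0, 9 and 1 in Lipo-BiTE, and 13, 30 and 24 in Lipo-TriTE. In CPM Lipo-TriTE lay above all PBS libraries (0.631 against 0.52 for the nearest pair) and overlapped Lipo-BiTE (up to 0.677). Its means were 0.312 ± 0.234, 0.25 ± 0.372 and 1.36 ± 0.658 CPM (SD, n = 3 each). In an edgeR fit with no filter (33524 genes) Itgb6 did not pass in Lipo-TriTE against PBS (log2 2.11, adjusted p = 0.16, unadjusted 0.039) or against Lipo-BiTE (2.4, adjusted p = 0.16, unadjusted 0.022).

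Selplg rose after both treatments, and Sele fell in Lipo-TriTE. Selplg, which encodes PSGL-1 on leukocytes, read 30.5, 41.4 and 37.3 CPM in PBS, 463.4, 242 and 129 in Lipo-BiTE, and 431.7, 421 and 353.8 in Lipo-TriTE. It rose 7.63-fold in Lipo-BiTE (log2 2.93, SE 0.39, adjusted p = 0.00091) and 11-fold in Lipo-TriTE (3.46, SE 0.39, adjusted p = 0.00018). Sele, which encodes E-selectin of activated endothelium, read 115.3, 140.1 and 149.4 CPM in PBS, 81.4, 118.5 and 118.2 in Lipo-BiTE, and 48, 79.6 and 78.4 in Lipo-TriTE. Lipo-TriTE libraries lay below all others. Sele fell by 0.98 on the log2 scale in Lipo-TriTE against PBS (SE 0.22, adjusted p = 0.0064) and did not pass in Lipo-BiTE (log2 −0.35, adjusted p = 0.29) or between the treatments (−0.63, adjusted p = 0.095). Selp, the P-selectin gene of platelets and endothelium, read 0.817, 2.3 and 3.27 CPM in PBS, 10, 6.54 and 2.91 in Lipo-BiTE, and 2.19, 7.87 and 3.11 in Lipo-TriTE, with overlap of all groups and no call (adjusted p = 0.11, 0.24 and 0.61).

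Of 7 endothelial markers 4 were tested, and in Lipo-TriTE against PBS 2 were higher, 1 was lower and 1 did not pass. Among all tested genes 18.9% were higher and 14.8% lower there. Cdh5, the cadherin of endothelial junctions, went from a mean of 141.7 to 84.2 CPM (log2 −0.75, adjusted p = 0.018). Kdr, a VEGF receptor of endothelium, went from 0.93 to 5.62 CPM (log2 2.61, adjusted p = 0.0089), and Pecam1, which leukocytes and platelets also express, from 5.37 to 84 CPM (log2 3.97, adjusted p = 0.00026). Egfl7 had means of 2.23 and 2.17 CPM (adjusted p = 0.95). The summed level of the markers ran from 134.8 to 158.6 CPM in PBS, 212.5 to 237.2 in Lipo-BiTE and 148.3 to 222.8 in Lipo-TriTE, and Tek, Robo4 and Cldn5 were not tested (0.197, 0.173 and 0 CPM in PBS). Most of that sum was Cdh5 (means of 141.7, 161.6 and 84.2 CPM) and Pecam1 (5.37, 61.3 and 84), so it does not measure endothelium alone. The cells that gave the Sele counts were not tested.

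Promoters of Icam1 and Sele are shown because both genes are textbook targets of NF-kB, and in Lipo-TriTE Icam1 rose and Sele fell. Each window covers 250 bases before to 50 after the RefSeq start in GRCm38.p6, chr9:21015690-21015989 for Icam1 and chr1:164047984-164048283 for Sele, both on the plus strand. Capitals mark GGNNNTTCC on either strand (GGAANNNCC on the other), a loose form of the NF-kB site.
Icam1 promoter: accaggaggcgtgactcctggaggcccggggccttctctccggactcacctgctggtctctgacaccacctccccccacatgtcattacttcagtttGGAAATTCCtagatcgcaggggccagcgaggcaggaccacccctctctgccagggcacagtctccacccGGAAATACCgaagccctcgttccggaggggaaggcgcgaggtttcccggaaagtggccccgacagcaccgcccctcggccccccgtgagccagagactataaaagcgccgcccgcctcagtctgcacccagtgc
Sele promoter: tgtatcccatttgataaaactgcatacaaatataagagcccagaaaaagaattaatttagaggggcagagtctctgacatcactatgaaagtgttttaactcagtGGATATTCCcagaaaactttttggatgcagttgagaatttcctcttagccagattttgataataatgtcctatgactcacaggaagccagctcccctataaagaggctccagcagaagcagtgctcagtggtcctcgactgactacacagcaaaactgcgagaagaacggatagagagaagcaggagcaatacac
The letters were found at 2 places for Icam1 and at 1 for Sele. They occurred in 18.5% of all 32851 promoters and in those of 8 of the 25 members with a sequence. This says which letters are there and nothing of binding.

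Genes that act with integrins, in lists drawn up with earlier results of these data known, moved in part. Of 28 tested genes of integrin activation and adhesion signalling, 14 rose and 0 fell in Lipo-BiTE against PBS (by edgeR; 3 lower at an unadjusted p under 0.05 and 1 by DESeq2), 13 higher and 8 lower in Lipo-TriTE, and 1 higher and 6 lower between the treatments, with median log2 fold changes of 0.65, 0.37 and −0.16. Of all tested genes 13.8%, 18.9% and 4.88% were higher in the same order, and 3.22%, 14.8% and 5.21% lower. The 1 higher between the treatments is thus near the background share. Adaptors of blood cells were among the higher. Fermt3, the kindlin that activates leukocyte integrins, rose 8.83-fold in Lipo-BiTE (adjusted p = 0.00091), Fyb 9.33-fold (adjusted p = 0.00076) and Parvg, a parvin of blood cells, 7.21-fold (adjusted p = 0.00076). In Lipo-TriTE against PBS Skap1, an adaptor of T cells, rose 18.4-fold (adjusted p = 1.8e-05), Parvg 13.8-fold (adjusted p = 4.3e-05) and Rassf5, a Rap1 effector, 12.2-fold (adjusted p = 0.00015). Skap1 was also 4.52-fold higher in Lipo-TriTE than in Lipo-BiTE (adjusted p = 0.0019), while the focal adhesion genes Parvb (log2 −1.23, adjusted p = 0.0021), Bcar1 (−1.46, adjusted p = 0.007) and Src (−1.17, adjusted p = 0.0088) were lower.

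Genes of selectin ligand synthesis and homing were higher in 6 of 12 tested cases in Lipo-BiTE, with 0 lower by edgeR, DESeq2 or an unadjusted p under 0.05. In Lipo-TriTE 8 of 12 were higher and 2 lower, and between the treatments 2 were higher and 1 lower (medians 0.68, 1.33 and −0.16). Over all tested genes 13.8% were higher in Lipo-BiTE, and 18.9% higher and 14.8% lower in Lipo-TriTE. The 2 lower in Lipo-TriTE are thus near the background share, and between the treatments that share was 4.88% higher and 5.21% lower. Fut4, a fucosyltransferase that builds selectin ligands, rose 16.6-fold and 9.78-fold (adjusted p = 0.00081 and 0.00099). Among 7 tested junction genes 3 were higher in each comparison with PBS, with 0 lower in Lipo-BiTE (0 also unadjusted and by DESeq2) and 3 lower in Lipo-TriTE (medians 0.19 and −0.73), and F11r, the JAM-A gene, rose 13.7-fold in Lipo-BiTE (adjusted p = 0.00076).

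Matrix ligands of integrins were lower in Lipo-TriTE for the larger part. Of 15 tested, 1 was higher and 3 lower in Lipo-BiTE, 0 higher (edgeR; 1 at an unadjusted p under 0.05 and by DESeq2) and 10 lower in Lipo-TriTE, and 1 higher and 7 lower between the treatments (medians −0.45, −1.11 and −0.69). Of all tested genes, 3.22%, 14.8% and 5.21% were lower in that order, and 13.8%, 18.9% and 4.88% higher. In Lipo-TriTE against PBS the matrix protein tenascin C (Tnc) fell by 1.48 on the log2 scale (adjusted p = 0.00022), the laminin chain Lamc1 fell by 1.22 (adjusted p = 0.00095) and the basement membrane gene Nid1 fell by 1.13 (adjusted p = 0.0011). Fn1, the fibronectin that alpha5 and alphaV bind, was at 1020 ± 108.2 CPM in Lipo-BiTE and 433.2 ± 99.7 in Lipo-TriTE (log2 −1.24, adjusted p = 0.0067; SD, n = 3 each). The 1 higher gene in Lipo-BiTE was Thbs1, thrombospondin 1, at 4.96-fold (adjusted p = 0.013). In that comparison the matrix gene Postn fell by 2.18 on the log2 scale (adjusted p = 0.0015) and the collagen chain Col1a2 fell by 2.41 (adjusted p = 0.0045). Postn was also the 1 gene higher in Lipo-TriTE than in Lipo-BiTE (log2 2.27, adjusted p = 0.0045). Cytokines and factors that act on adhesion ligand genes were higher in 10 of 13 cases in Lipo-BiTE and 7 in Lipo-TriTE, with 1 and 2 lower (medians 0.99 and 0.8). The 2 lower in Lipo-TriTE are near the 14.8% of all tested genes. Tnf rose 9.67-fold in Lipo-BiTE (adjusted p = 0.00086) and Il1b 12.8-fold (adjusted p = 0.0021). Ltb, the lymphotoxin beta of lymphocytes, rose 32.2-fold in Lipo-TriTE (adjusted p = 0.0002).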

How the data were processed

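RNA of 9 tumour samples was sequenced from random-primed libraries, per the labels' protocols. The deposited values are raw counts per gene in 1 table, as its whole numbers show. The aligner, the counter and the use of strand were not given in the sources used here. Columns named untreated were taken as PBS, the group left over, which is an inference. Entries under an identifier in place of a name (3710) took 1.17% to 2.14% of counts. The deposited gene length gave levels per kilobase.

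Counts were fitted in R 4.3.3 with edgeR 4.0.16 (filterByExpr, TMM, robust quasi-likelihood, 1 mean per group over all 9 libraries, 6 residual degrees of freedom), adjusting p over 16596 genes. SE is the log2 fold change over the root of F. CPM use TMM-scaled totals, and ratios add 0.1 CPM. Alternatives were DESeq2 1.42.0 (size factors and Wald test), other filters and scaling, 2-group fits, no robust estimation, a replicate block and leaving out each library. On simulated counts the fit recovered 43%, 42% and 32% of 2-fold changes and 83%, 92% and 76% of 4-fold changes (14867 genes for Lipo-BiTE against PBS, 14903 for Lipo-TriTE against PBS, 15263 between the treatments). No replicates matched within sampling noise. Promoters of 25 members came from RefSeq. Members, lists and rules were chosen with earlier results of these data known. Every called member and a fixed panel have per-library values, except Madcam1 and Glycam1 of the panel, which have counts per group. Each list names up to 4 genes with the smallest p per comparison. Other marker genes were named after their values were seen. 1 gene of the homing list is not reported here by name.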

Additional observations from a re-analysis of the deposited data

How the results depend on the processing

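Of 1511 alternative values of the members' fold changes, 1421 kept direction and side of the threshold, 30 lost and 24 gained the threshold, and 36 changed sign, 0 of them among called results. The causes were not tested.

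Between the treatments 7 members were lower with no low-count filter (4 in the reported fit), and 2993 genes were called with no filter and 2679 by DESeq2, against 1675. Leaving out 1 library gave 1535 to 3627 genes called in Lipo-BiTE against PBS (2817 reported) and 434 to 1932 between the treatments, where 1 to 4 members were higher and 1 to 7 lower. Against PBS it gave 9 to 12 members higher and 0 lower in Lipo-BiTE, and 14 to 15 higher and 7 lower in Lipo-TriTE.

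Signs changed as follows, all as log2 fold changes. With total counts, Icam1 between the treatments was 0.01, Itga5 in Lipo-BiTE against PBS −0.13 and Itgb4 in Lipo-BiTE against PBS −0.07. Itga5 in Lipo-BiTE against PBS was −0.0037 with no filter and −0.0048 with at least 1 CPM in 3 libraries. Itgam between the treatments was −0.81 with both alpha-M entries summed, an alternative chosen after seeing the data.

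Leaving out 1 library gave, in Lipo-BiTE against PBS, ranges of −0.34 to 0.0028 for Itga10, −0.21 to 0.13 for Itga3, −0.12 to 0.07 for Itga5, −1.56 to 0.12 for Itga8, −0.3 to 0.02 for Itgb3 and −0.04 to 0.17 for Itgb4. In Lipo-TriTE against PBS they were −0.15 to 1.41 for Icam5, −0.09 to 0.25 for Itga1, −0.46 to 0.06 for Itga7 and −0.15 to 0.27 for Vcam1. Between the treatments they were −0.43 to 0.21 for Icam1, −0.79 to 0.09 for Icam5, −0.08 to 0.45 for Itga7, −0.46 to 0.14 for Itgad, −0.08 to 0.69 for Itgal, −0.09 to 1.47 for Itgam, −0.4 to 0.21 for Itgb2 and −0.05 to 0.55 for Itgb7.

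Same-numbered libraries correlated between −0.19 and 0.08 in their deviations from group means, and other pairs between −0.17 and 0.24. No pairing by number showed in this measure, which with 3 libraries in a group cannot exclude a shared batch. With the replicate number as a block, 9, 16 and 2 members were higher and 0, 7 and 5 lower, in the order Lipo-BiTE and Lipo-TriTE against PBS and then between the treatments, and Itga1 in Lipo-TriTE against PBS was −0.02. The block moved the calls of Itgam in Lipo-BiTE (adjusted p = 0.08), Itgb4 (0.091) and Itga2b (0.044) in Lipo-TriTE against PBS, and Sele between the treatments (0.031). The filter left out Glycam1, Icam4, Itgb6 and Madcam1. With no filter none of these 4 passed in any comparison (adjusted p from 0.16 to 1).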
